A study of Mus musculus with 46 samples.

Results

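Steroid hormone receptors and the proteins that fold, activate or silence them were followed at the level of RNA through 8 groups of mouse skeletal muscle. The 9 genes were a fixed set of symbols, and each was looked up in both count tables by its Ensembl identifier. All 9 were found in both tables, out of 17859 genes listed in either table. The set held the receptor genes Esr1 (estrogen receptor alpha) and Nr3c1 (glucocorticoid receptor), the co-chaperones Fkbp5 and Fkbp4, the coactivators Ncoa1, Ncoa2 and Ncoa4, the corepressor Ncor1, and Srd5a3.

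The glucocorticoid receptor without its hormone is held in the cytoplasm by heat shock protein 90 and co-chaperones. Fkbp5 lowers the hormone affinity of the glucocorticoid receptor in that complex and is itself switched on by glucocorticoids, progestins and androgens, whereas Fkbp4 favours hormone binding and transport to the nucleus. On DNA a steroid receptor recruits coactivators of the Ncoa family, which bring in histone acetylation, or the corepressor Ncor1, which brings in histone deacetylation.

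The study asked whether loss of alpha-actinin-3, the fast-fibre actin-crosslinking protein encoded by Actn3, changes how muscle responds to androgens. The sample labels give the strain as C57BL6, and the study's methods name it C57BL/6J. In the androgen deprivation experiment, C57BL6 male mice, either wild type (WT) or Actn3 knockout (KO), were orchidectomised (ORX) or sham-operated when aged 8 to 10 weeks, and the gastrocnemius was taken 12 weeks later. In the androgen supplementation experiment, C57BL6 females of both genotypes received at 4 to 5 weeks of age a silastic implant that was empty or held 10 mg of dihydrotestosterone (DHT), and the spinalis was taken 6 weeks later. Muscle, sex, age and duration all differ between the experiments, so each was fitted alone and levels are compared only within an experiment.

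The 23 gastrocnemius libraries comprised 6 from WT-sham, 6 from KO-sham, 6 from WT-ORX and 5 from KO-ORX mice, and the 22 spinalis libraries 5 from WT-empty, 5 from KO-empty, 6 from WT-DHT and 6 from KO-DHT mice. Of 46 labelled samples 45 were used, as no count column was matched to KO-ORX replicate 6. Total counts per library were between 26653932 and 55369921 in gastrocnemius and between 34812381 and 53899279 in spinalis. Depth followed genotype in the sham groups, at 29511438 to 37486666 counts in KO-sham and 43408015 to 50273747 counts in WT-sham. Its part in the comparisons of those groups was not tested.

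Levels are given as CPM, the usual counts-per-million unit on TMM-scaled library totals, and where genes are compared with each other as FPKM, which is CPM per kilobase of exon. Changes are log2 fold changes with a standard error (SE). A gene is called when edgeR's quasi-likelihood F test gives it an adjusted p (Benjamini-Hochberg, over the whole table) of at most 0.01 for a pair of groups or at most 0.05 for the interaction. The interaction is the response to the hormone state in KO minus that in WT. The percentage of all tested genes called in the same contrast is given as the background for the count of members. The members were chosen with earlier results of these data known, so that comparison is a description and not a test of the set.

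Actn3 served as the check of the genotype labels. Its level in gastrocnemius was 5980 to 7050 CPM in WT-sham and 7830 to 9620 CPM in WT-ORX, against 35.8 to 54.7 CPM in KO-sham and 34.3 to 53.1 CPM in KO-ORX. In spinalis it was 8590 to 10400 CPM in WT-empty and 6160 to 7700 CPM in WT-DHT, against 56.6 to 83.2 CPM in KO-empty and 61.4 to 77.5 CPM in KO-DHT. Every library matched its genotype label. The fast-fibre markers Ckm, Acta1, Myh4, Mylpf and Tnnt3 together took 83600 to 161000 CPM of each library, and Myh4, the fast myosin heavy chain, was the most abundant of them in both muscles.

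Within each muscle the members spanned a wide range of abundance. On the FPKM scale, the mean level in WT-sham was 34.3 for Fkbp4, 28.1 for Nr3c1, 10.5 for Ncor1, 4.99 for Ncoa1, 4.77 for Fkbp5, 3 for Esr1, 1.86 for Ncoa4, 1.84 for Ncoa2 and 0.570 for Srd5a3. In WT-empty spinalis the same scale gave 51.1 for Fkbp4, 31.9 for Nr3c1, 10.8 for Ncor1, 5.65 for Fkbp5, 4.25 for Ncoa1 and 4.21 for Esr1. Ncoa2 and Ncoa4 were both at 1.88, and Srd5a3 was at 0.426. The order of neighbours within their SD cannot be told: Ncoa1 and Fkbp5 in WT-sham (SD 0.212 and 1.16, n = 6 each), Ncoa1 and Esr1 in WT-empty (SD 0.468 and 0.698, n = 5 each), and Ncoa2 and Ncoa4 in both. The same holds for Fkbp5 in WT-empty, whose SD of 1.94 spans Ncoa1 and Esr1. The order also depends on the length used: per base of the longest transcript, Fkbp5 (11.7) and Esr1 (6.46) stood above Ncoa1 (5.84) in WT-sham.

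Removal of the testes raised both receptor genes in WT gastrocnemius, and DHT lowered both in WT spinalis. Of the 9 members, 2 were called with ORX in WT, both higher, against 5.45% of all genes. With ORX in KO 1 was called, higher, against 5.57% of all genes. With DHT in WT 3 were called, 1 higher and 2 lower, against 11.3% of all genes, and with DHT in KO 1 was called, lower, against 4.62% of all genes.

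The genotype contrasts called members of both kinds. KO against WT gave 1 called member in sham, against 5.3% of all genes, and 1 in ORX, against 3.8%, both lower in KO. It gave 2 in empty, against 4.25%, and 2 in DHT, against 11.6%, all lower in KO. Neither interaction called any of the 9 members with edgeR, DESeq2 or limma-voom, against 0.0228% of all genes for ORX and 3.24% for DHT. At an unadjusted p below 0.05, 2 members passed for ORX, beside 1683 of all 17514 genes, and 1 for DHT, beside 2564 of all 16987 genes.

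**Figure D1:**
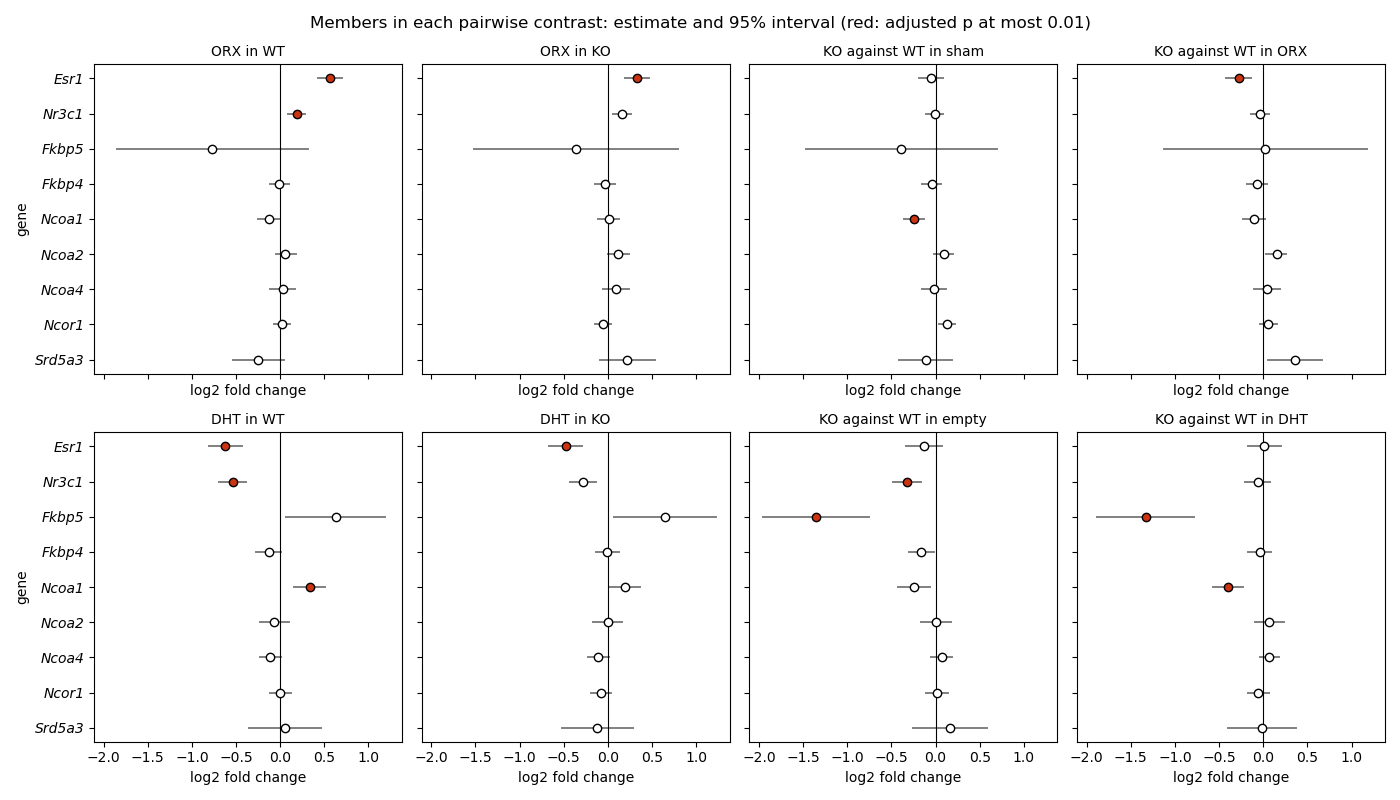
Log2 fold change (x axis) of the 9 members (y axis) in each of the 8 pairwise contrasts, with the 95% interval as a line; filled red points have an adjusted p of at most 0.01. Esr1 lies to the right of 0 with ORX and to the left with DHT in both genotypes, and Fkbp5 lies far to the left of 0 in KO against WT in spinalis, at -1.35 in empty and -1.33 in DHT.

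Esr1, the gene of estrogen receptor alpha, had in gastrocnemius a lowest, median and highest level of 37.1, 42.1 and 42.6 CPM in WT-sham and of 52.0, 60.7 and 69.6 CPM in WT-ORX. In KO-sham these were 34.5, 40.3 and 44.8 CPM, and the 5 KO-ORX libraries stood at 46.8, 47.0, 49.9, 52.2 and 52.5 CPM. Every ORX library was above every sham library of its own genotype. The rise with ORX was 0.56 (SE 0.064, adjusted p = 5.5e-07 by edgeR) in WT and 0.33 (SE 0.067, adjusted p = 0.0018) in KO.

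The KO-ORX and WT-ORX groups touched at 52.0 to 52.5 CPM, and Esr1 was lower in KO-ORX by edgeR (log2 fold change -0.28, SE 0.067, adjusted p = 0.0077). The 2 sham groups overlapped over most of their range, and their difference of -0.05 (SE 0.065, adjusted p = 0.7) was not called. The difference between the ORX responses of the genotypes was -0.23 (95% interval -0.43 to -0.04, unadjusted p = 0.019, adjusted p = 0.4) in edgeR's interaction test and was not called. The KO against WT call in ORX was lost in edgeR's fit without any single library of WT-ORX replicates 1, 3, 4, 5 and 6 or KO-ORX replicates 1, 2, 4 and 5, with adjusted p up to 0.028. It was also lost with library-size scaling (adjusted p = 0.017) and in a fit of those groups alone (0.017). Esr1 followed the summed fast-fibre markers across the 23 libraries once group means were removed (r = 0.68). That sum was 83600 to 91700 CPM in KO-ORX against 90500 to 124000 CPM in WT-ORX. In the same contrast 3 of 5 fast-fibre genes were called lower in KO, against 3.8% of all genes called. The macrophage marker C1qa was also called lower (-0.48, SE 0.11). Of the 5 macrophage markers 4 were below 0, while Mrc1, the most abundant, was at 0.08 (SE 0.074) and not called. Whether fibre or macrophage RNA had a part in the Esr1 difference was not tested, and in whole muscle fewer cells of a type and less RNA per cell cannot be told apart.

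In spinalis the 5 WT-empty libraries had Esr1 at 45.3, 52.0, 56.2, 66.9 and 67.2 CPM, and the WT-DHT libraries had a lowest, median and highest level of 33.0, 37.8 and 42.2 CPM. The 5 KO-empty libraries were at 49.9, 50.1, 51.2, 51.6 and 60.4 CPM, and KO-DHT at 35.3, 37.5 and 42 CPM. Every DHT library was below every empty library of the same genotype. Esr1 fell by 0.62 on the log2 scale in WT (SE 0.09, adjusted p = 1.6e-05 by edgeR) and by 0.48 in KO (SE 0.09, adjusted p = 0.0012). The genotypes overlapped in both hormone states, and the interaction was 0.14 (95% interval -0.13 to 0.41, adjusted p = 0.67).

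Nr3c1, the receptor for corticosterone in the mouse, had in gastrocnemius a lowest, median and highest level of 208, 216 and 224 CPM in WT-sham and of 230, 242 and 272 CPM in WT-ORX. KO-sham stood at 203, 213 and 226 CPM, and the KO-ORX libraries at 215, 236, 241, 249 and 254 CPM. WT-ORX lay wholly above WT-sham, while 1 KO-ORX library, replicate 3, fell inside the range of KO-sham. The rise was 0.19 (SE 0.046, adjusted p = 0.0069 by edgeR) in WT, and the KO value of 0.16 (SE 0.048, adjusted p = 0.032) was not called. The interaction was -0.03 (95% interval -0.17 to 0.11, adjusted p = 0.92). Averaged over genotypes, a contrast chosen after seeing the data, 2 members were called with ORX, against 11.4% of all genes: Esr1 at 0.45 (SE 0.046) and Nr3c1 at 0.17 (SE 0.033, adjusted p = 0.00037 by edgeR). Esr1 averaged over sham and ORX was lower in KO at -0.17 (SE 0.047, adjusted p = 0.013), which was not called, and passed without WT-sham replicate 5 (0.0082), WT-ORX replicate 2 (0.004) or KO-sham replicate 1 (0.0046).

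The Nr3c1 call with ORX in WT was close to the threshold. It was lost, with adjusted p up to 0.023 in edgeR, without WT-sham replicate 1, 4, 5 or 6, WT-ORX replicate 1, 3, 5 or 6, or KO-sham replicate 5, and the log2 fold change then lay between 0.16 and 0.19. Library-size scaling (adjusted p = 0.012) and a fit of the WT groups alone also ended it. Without KO-ORX replicate 3 the value in KO was 0.19 and was called (adjusted p = 0.0074). With library-size scaling it was 0.27 and was called (0.0056), but that scaling raised the median of all genes by 0.11 in this contrast. The averaged rise was called in each of the 23 fits that left out 1 library.

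In spinalis Nr3c1 was at 196, 248, 255, 263 and 265 CPM in the WT-empty libraries and at 162, 169 and 173 CPM (lowest, median, highest) in WT-DHT. KO-empty libraries were at 178, 182, 195, 198 and 226 CPM, and KO-DHT at 147, 166 and 172 CPM. WT-empty was the highest group, apart from mouse 14KR at 196 CPM, and each DHT group lay wholly below the empty group of its genotype. With DHT, log2 Nr3c1 fell by 0.54 in WT (SE 0.071, adjusted p = 4e-06 by edgeR). In KO the value was -0.28 (SE 0.072, adjusted p = 0.013) and was not called by edgeR, although the groups did not overlap. DESeq2 called it (adjusted p = 0.0045), as did edgeR on genes with at least 10 counts in every library (0.0096).

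Among mice with empty implants Nr3c1 was lower in KO than in WT by edgeR (log2 fold change -0.32, SE 0.075, adjusted p = 0.0069), and under DHT the genotypes differed by -0.06 (SE 0.068, adjusted p = 0.6). The difference between the DHT responses was 0.26 (95% interval 0.05 to 0.47, unadjusted p = 0.017, adjusted p = 0.2) and was not called. Without WT-empty mouse 14KR edgeR called the interaction (0.33, adjusted p = 0.034) and the fall with DHT in KO (adjusted p = 0.003), the latter at the same -0.28. The difference between the empty groups was lost, with adjusted p up to 0.026, without WT-empty mouse 4KR, 7KR, 35KR or 49KR, WT-DHT mouse 8KR, or KO-empty mouse 17KR, 61KR, 62KR or 64KR. Library-size scaling (adjusted p = 0.03) and a fit of the empty groups alone (0.073) also ended that call. In the same contrast, which called 4.25% of all genes, the fast-fibre gene Tnnt3 was called lower in KO (-0.37, SE 0.084). All 5 of 5 fast-fibre genes were below 0, and the neutrophil markers S100a8 and S100a9 were called higher. After removal of group means Nr3c1 had an r of 0.42 with the summed fast-fibre markers and of -0.42 with the summed neutrophil markers. The part of these cells was not tested.

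**Figure D2:**
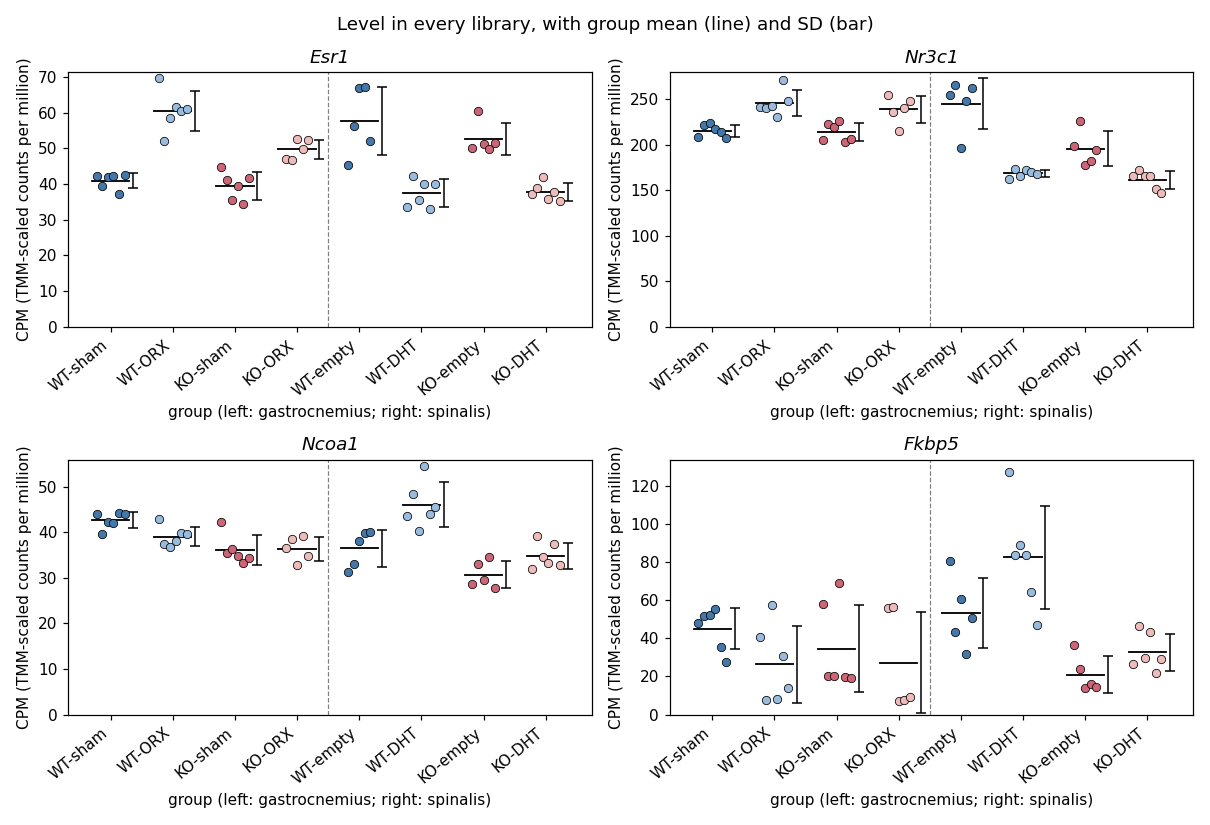
CPM (y axis) of Esr1, Nr3c1, Ncoa1 and Fkbp5 in every library (points) of the 8 groups (x axis), with the group mean as a line and the SD as a bar; gastrocnemius groups are left of the dashed line and spinalis groups right of it. The group means of Esr1 and Nr3c1 are higher in ORX than in sham and lower in DHT than in empty, although the Nr3c1 changes in KO were not called, and Fkbp5 spans 7.68 to 57.6 CPM within WT-ORX.

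Cell type markers moved in the same libraries. With ORX, which called 5.45% of all genes in WT and 5.57% in KO, the fibroblast marker Lum rose by 0.59 in WT (SE 0.089) and 0.57 in KO (SE 0.093). The fibroblast marker Pdgfra (-0.23) and the macrophage marker Csf1r (-0.31) fell in WT. Of the fast-fibre genes Mylpf rose in WT (0.44) and Tnnt3 fell in KO (-0.20). In WT 1 of 5 fibroblast, 2 of 5 macrophage and 5 of 5 fast-fibre genes were above 0. In KO these numbers were 4, 3 and 1 of 5. With DHT, which called 11.3% of all genes in WT and 4.62% in KO, the endothelial markers rose for 2 of 5 genes in WT and 1 of 5 in KO, and their sum, led by Pecam1, had a median of 145 CPM in WT-empty, 199 CPM in WT-DHT, 173 CPM in KO-empty and 210 CPM in KO-DHT. The smooth muscle and pericyte markers rose for 1 of 4 genes in each genotype, with medians of 396, 545, 407 and 491 CPM in the same order and Rgs5 most abundant. The adipocyte markers, led by Cfd, had medians of 516, 233, 556 and 335 CPM, with 1 of 5 genes lower in WT and 0 of 5 called in KO. In each genotype 4 of these 5 genes were below 0. Lep was above 0, at 1.24 in WT (SE 0.42) and 1.1 in KO (SE 0.41), and was not called. Of 5 fibroblast markers, Dcn rose in WT (0.54, SE 0.11) and KO (0.51, SE 0.11), while Pdgfra fell in WT (-0.44, SE 0.084) and Lum in KO (-0.98, SE 0.14). The neutrophil marker S100a9 was called lower in KO (-3.98, SE 0.94), which rests on KO-empty mice 17KR and 61KR (24.0 and 52.7 CPM), as the other 3 (0.756 to 1.80 CPM) lay within the KO-DHT range of 0.451 to 2.59 CPM. The part of these cells in the receptor results was not tested.

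Fkbp5, the glucocorticoid-inducible co-chaperone, was the member with the largest difference between genotypes in spinalis. WT-empty libraries held 32.1, 43.5, 50.7, 60.4 and 80.6 CPM, and WT-DHT had a lowest, median and highest level of 47.0, 83.8 and 128 CPM. KO-empty libraries held 14.1, 14.2, 15.9, 23.9 and 36.6 CPM, and KO-DHT 22.0, 29.4 and 46.3 CPM. Every KO-DHT library was below every WT-DHT library, and among empty implants only KO mouse 17KR reached into the WT range. No WT mouse had a number above 50KR, while mice 61KR to 65KR were all KO. Fkbp5 was at 14.1, 15.9 and 14.2 CPM in KO-empty mice 61KR, 62KR and 64KR, and at 23.9 and 36.6 CPM in 33KR and 17KR. It was at 22.0 and 29.3 CPM in KO-DHT mice 63KR and 65KR, and at 26.4 to 46.3 CPM in the others. What the numbers stand for is not given, and their part in the spinalis genotype differences was not tested. By edgeR the log2 fold change in KO against WT was -1.35 in empty (SE 0.28, adjusted p = 0.0035) and -1.33 in DHT (SE 0.26, adjusted p = 0.00051), so that the KO level was 0.392 and 0.397 of the WT level. Under DHT 2 of 3 satellite cell markers, Pax7 (1.24, SE 0.25) and Myf5 (0.89, SE 0.2), were called higher in KO, against 11.6% of all genes called. The remaining marker, Chrdl2, was at -0.27 (SE 0.27) and not called. The fast-fibre gene Acta1 was called lower (-0.51, SE 0.095), with 5 of 5 fast-fibre genes below 0. Fkbp5 had an r of -0.77 with the summed satellite cell markers over the 22 libraries and of -0.32 after removal of group means. The part of these cells in the Fkbp5 difference was not tested.

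With DHT, Fkbp5 had similar estimates in both genotypes, 0.63 in WT (95% interval 0.07 to 1.19, adjusted p = 0.11 by edgeR) and 0.65 in KO (0.07 to 1.22, adjusted p = 0.14), and neither was called. Its interaction was 0.02 with a 95% interval of -0.78 to 0.81. Averaged over genotypes, 3 members were called with DHT (Esr1 and Nr3c1 lower, Ncoa1 higher), against 15.1% of all genes. The Ncoa1 call was lost with library-size scaling (adjusted p = 0.019 by edgeR), and Fkbp5 at 0.64 (SE 0.19, adjusted p = 0.016) was not called. The Fkbp5 average passed without WT-empty mouse 4KR (adjusted p = 0.0065), WT-DHT mouse 50KR (0.0082) or KO-empty mouse 17KR (0.0021). Averaged over empty and DHT, 3 members were lower in KO, against 14.2% of all genes: Fkbp5 at -1.34 (SE 0.19, adjusted p = 1.2e-05), Ncoa1 at -0.33 (SE 0.06) and Nr3c1 at -0.19 (SE 0.051, adjusted p = 0.0066). The averaged Nr3c1 call was lost, with adjusted p up to 0.018, without WT-empty mouse 4KR, 7KR, 35KR or 49KR, WT-DHT mouse 8KR, 34KR, 39KR or 50KR, KO-empty mouse 17KR, 61KR, 62KR or 64KR, or KO-DHT mouse 63KR or 65KR. Library-size scaling also ended it (adjusted p = 0.084). These averages too were chosen after seeing the data.

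The KO against WT difference in empty implants depended on single libraries for its call but not for its direction. It was lost without WT-empty mouse 4KR (-1.15, adjusted p = 0.015 by edgeR) and without KO-empty mouse 61KR (-1.24, 0.011), 62KR (-1.27, 0.012) or 64KR (-1.24, 0.014), and in a fit of the empty groups alone (0.015). Under DHT it was called in each of the 22 fits that left out 1 library. Neutrophil marker S100a9 was at 24.0 CPM in KO-empty mouse 17KR and 52.7 CPM in mouse 61KR, and at 0.756 to 1.80 CPM in the other KO-empty libraries. The sum of S100a8 and S100a9 was 0.18 to 0.674 CPM in WT-empty, and both genes were called higher in KO-empty, against 4.25% of all genes called. The part of neutrophils in the Fkbp5 result was not tested. Fkbp5 was at 36.6 CPM in mouse 17KR and 14.1 CPM in mouse 61KR, the highest and the lowest of the group.

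In gastrocnemius no contrast called Fkbp5, and the spread within groups was the main feature. Lowest, median and highest levels were 27.9, 50.0 and 55.3 CPM in WT-sham, 7.68, 22.4 and 57.6 CPM in WT-ORX and 19.3, 20.3 and 69.3 CPM in KO-sham. KO-ORX libraries held 7.27, 7.66, 8.97, 56.2 and 56.6 CPM. The highest library was 7.49 times the lowest in WT-ORX and 7.79 times in KO-ORX, where 3 libraries were low and 2 high with none between. The 2 high KO-ORX libraries, replicates 1 and 2, were also the shallowest of that group, at 29705361 and 26653932 counts against 41583270 to 48521557 counts in the others. After the levels were seen, r of log2 Fkbp5 with log2 depth was taken within groups, and was -0.98 in KO-ORX (n = 5), -0.21 in KO-sham, 0.03 in WT-sham and 0.46 in WT-ORX (n = 6 each), and -0.45 over the 23 libraries after removal of group means. Cell type markers also followed Fkbp5 after that removal, with r of 0.52 for the summed fibroblast, -0.50 for endothelial, 0.50 for red blood cell and -0.45 for satellite cell markers. Whether depth, handling or cell types had a part was not tested.

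The estimates for Fkbp5 in gastrocnemius were correspondingly loose. The ORX estimate was -0.77 in WT (95% interval -1.85 to 0.31, adjusted p = 0.42 by edgeR) and -0.36 in KO (-1.52 to 0.79, adjusted p = 0.75). KO against WT gave -0.39 in sham (-1.47 to 0.69) and 0.02 in ORX (-1.13 to 1.17). Leaving out 1 library moved the ORX value between -1.15 and -0.58 in WT and between -0.82 and -0.03 in KO, and KO against WT between -0.72 and -0.27 in sham and between -0.44 and 0.39 in ORX. With limma-voom the ORX values were -1.11 in WT and -0.94 in KO, and KO against WT was -0.59 in sham and -0.42 in ORX. None of these was called.

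Other genes known to be induced by glucocorticoids rose and fell with Fkbp5 from library to library. After removal of the group means, r over the 23 gastrocnemius libraries was 0.96 for Zbtb16, a transcription factor, 0.93 for Tsc22d3, the leucine zipper protein GILZ, 0.89 for Glul, glutamine synthetase, and 0.88 for the metallothionein Mt1. It was 0.81 for Arrdc2, 0.76 for Mt2, 0.75 for Klf9, 0.74 for Ddit4 and 0.72 for the clock gene Per1. The median over all genes was 0.00, and Zbtb16 ranked 1 among all genes of the table. Without that removal r was lower for each gene given here: 0.83 for Zbtb16 (Spearman's rho 0.86) and 0.86 for Tsc22d3 (rho 0.81), and 0.81 and 0.84 without the 2 libraries farthest from the median of Fkbp5. For Glul it was 0.61, for Mt2 0.54 and for Per1 0.47. The genes come from a list of glucocorticoid targets, those named here being chosen after their values were seen. The points share libraries and the scaling of those libraries, and the coefficients are descriptions.

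The same pattern is visible in single libraries. The KO-ORX libraries with Fkbp5 at 56.2 and 56.6 CPM had Zbtb16 at 89.1 and 96.8 CPM and Tsc22d3 at 314.8 and 360.9 CPM. The 3 with Fkbp5 below 10 CPM had Zbtb16 at 37.7, 44.3 and 44.6 CPM and Tsc22d3 at 139.9, 177.4 and 178.9 CPM. Not every glucocorticoid target followed. Of the 20, r was above 0.7 for the 9 given, between 0.24 (Sesn1) and 0.67 for 9, and below 0 for 2, Fbxo32 (-0.32) and Angptl4 (-0.41). Of the other members, Nr3c1 had an r of 0.39 with Fkbp5 and Fkbp4 of -0.01.

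In spinalis the relation was looser, with r after removal of group means of 0.59 for both Zbtb16 and Tsc22d3, 0.56 for Glul, 0.50 for Mt1 and -0.06 for Per1 over 22 libraries. Of 19 targets none was above 0.7 and 3 were below 0. Within groups it was 0.02 for Zbtb16 and 0.34 for Tsc22d3 in WT-DHT (n = 6), 0.61 and 0.58 in WT-empty (n = 5), 0.87 and 0.67 in KO-empty (n = 5) and 0.70 and 0.80 in KO-DHT (n = 6). Tsc22d3 was at 136.7 to 289.2 CPM in KO-empty and at 259.8 to 622.5 CPM in WT-empty, so those groups overlapped.

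**Figure D3:**
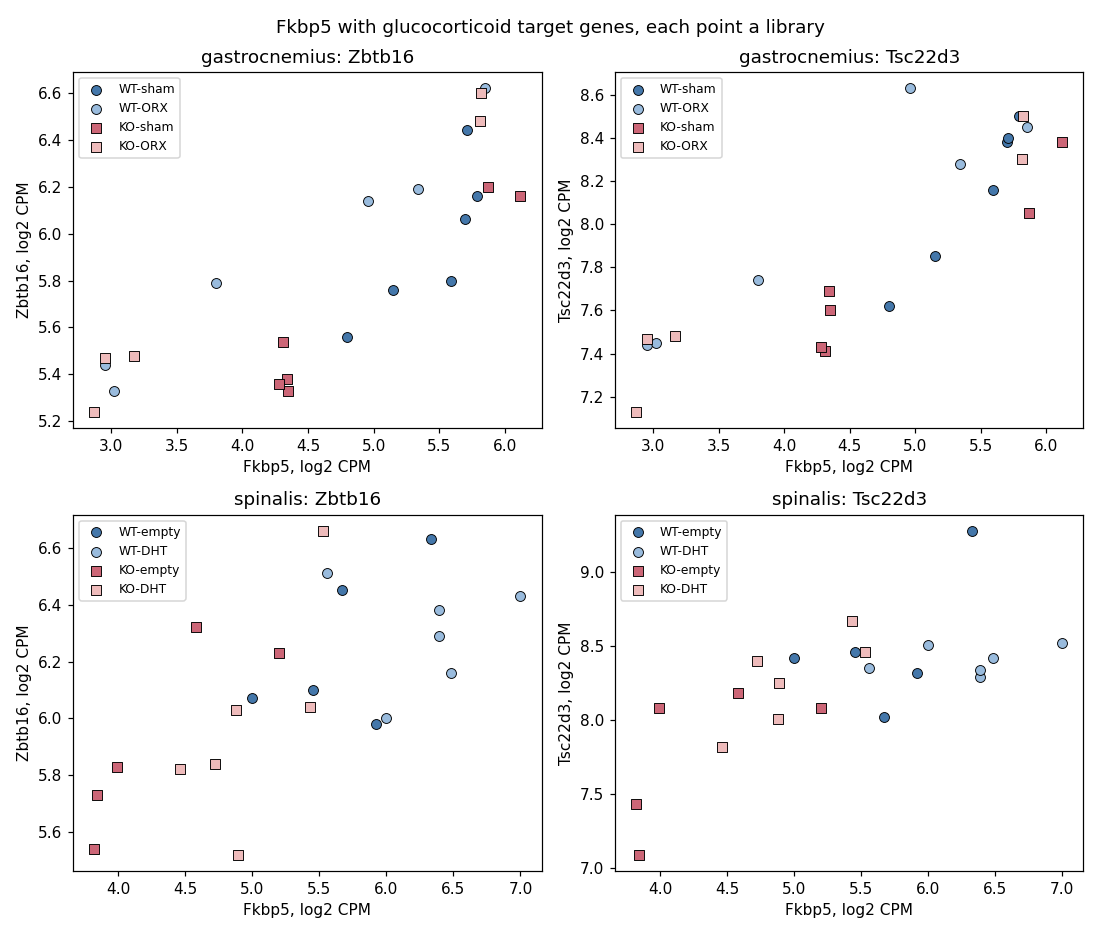
Log2 CPM of Fkbp5 (x axis) against log2 CPM of Zbtb16 or Tsc22d3 (y axis), each point a library, for gastrocnemius (top) and spinalis (bottom). In gastrocnemius both genes rise with Fkbp5 within each group, with r of 0.96 and 0.93 after removal of group means, and in spinalis the points scatter more widely, with r of 0.59 for each.

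Fkbp4, the co-chaperone that favours hormone binding, was called in no contrast. Its level was 83.3 to 103 CPM over all gastrocnemius libraries and 113 to 151 CPM over all spinalis libraries. The estimate farthest from 0 was -0.16 (95% interval -0.30 to -0.02, adjusted p = 0.14 by edgeR) in KO against WT in empty. Of 18 other chaperones and co-chaperones of the receptor complex, all measured, hormone state called none in either muscle. The shares of all genes called were 5.45% with ORX in WT, 5.57% with ORX in KO, 11.3% with DHT in WT and 4.62% with DHT in KO. KO raised 2 in sham (5.3% of all genes called), Cdc37 (0.22, SE 0.044) and Ahsa1 (0.19, SE 0.04). It raised 2 in DHT (11.6%), Ppp5c (0.33, SE 0.075) and Ahsa1 (0.28, SE 0.068), and called none in ORX (3.8%) or in empty (4.25%). The list's median log2 fold change lay between -0.02 and 0.07 in the 8 contrasts.

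Ncoa1, the p160 coactivator also named SRC-1, was lower in KO in sham gastrocnemius and in DHT-treated spinalis. In gastrocnemius its lowest, median and highest levels were 39.6, 43.2 and 44.4 CPM in WT-sham, 33.2, 35.2 and 42.3 CPM in KO-sham and 36.8, 38.8 and 42.8 CPM in WT-ORX. KO-ORX libraries held 32.8, 34.7, 36.5, 38.5 and 39.1 CPM. Only KO-sham replicate 1, at 42.3 CPM, reached the WT-sham range. KO against WT was -0.25 in sham (SE 0.056, adjusted p = 0.0045 by edgeR) and -0.11 in ORX (SE 0.059, adjusted p = 0.34), which was not called. Averaged over sham and ORX, a contrast chosen after seeing the data, Ncoa1 was the 1 called member, at -0.18 (SE 0.041, adjusted p = 0.0029), against 9.57% of all genes. The sham call was lost, with adjusted p up to 0.014, without WT-sham replicate 1, 5 or 6 or KO-sham replicate 2, 4, 5 or 6, and in a fit of the sham groups alone (0.015). Across gastrocnemius libraries Ncoa1 had an r of 0.53 with the summed fast-fibre markers after removal of group means, and the KO-sham libraries were the shallower ones. The satellite cell marker Myf5 was called higher in KO-sham (0.75, SE 0.18), and Acta1 (-0.37) and Csf1r (-0.29) lower, against 5.3% of all genes called. Of the 5 fast-fibre genes 4 were below 0, and Mylpf was at 0.22 (SE 0.07) and not called. The satellite cell markers were above 0 for 3 of 3 genes and the macrophage markers below 0 for 5 of 5. Ncoa1 had an r of -0.57 with the summed satellite cell markers, and of 0.22 after removal of group means. The part of depth or of any cell type was not tested.

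In spinalis the Ncoa1 levels were 31.3, 33.1, 38.1, 39.9 and 40.1 CPM in WT-empty and 40.2, 44.8 and 54.6 CPM in WT-DHT. KO-empty libraries held 27.7, 28.7, 29.4, 33.0 and 34.7 CPM, and KO-DHT 31.9, 33.9 and 39.2 CPM. WT-DHT lay above WT-empty by the narrow gap between 40.1 and 40.2 CPM and wholly above KO-DHT. By edgeR Ncoa1 rose with DHT in WT by 0.34 (SE 0.084, adjusted p = 0.0057), and was lower in KO under DHT (log2 fold change -0.40, SE 0.08, adjusted p = 0.00074). In that last contrast Pax7, Myf5 and Acta1 were called as given for Fkbp5, while the satellite cell marker Chrdl2 was at -0.27 and not called. Ncoa1 had an r of -0.74 with the summed satellite cell markers over the 22 libraries and of -0.10 after removal of group means. With the summed endothelial markers, of which Pecam1 and Tie1 were called higher with DHT in WT (11.3% of all genes called), r was 0.43 and 0.51. It was 0.6 and 0.03 with the smooth muscle and pericyte markers, where Rgs5 was called higher in that contrast. For the adipocyte markers, where Cfd was called lower, it was -0.54 and -0.08. The part of these cells was not tested. The KO response of 0.19 (SE 0.084, adjusted p = 0.17) and the empty difference of -0.25 (SE 0.088, adjusted p = 0.077) were not called, and the interaction was -0.15 (95% interval -0.40 to 0.10, adjusted p = 0.61). The rise in WT was lost, with adjusted p up to 0.024, without WT-empty mouse 4KR or 7KR or WT-DHT mouse 8KR, 34KR or 50KR, with library-size scaling (0.045) and in a fit of the WT groups alone (0.016). The antisense gene 4921501I09Rik shares 68 exon bases with Ncoa1, and whether counting used strand is not given in the sources used here.

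Ncoa2, Ncoa4 and Ncor1 were called in no contrast of the main edgeR fit. Ncoa2, the coactivator SRC-2, was at 26.7 to 35.8 CPM in gastrocnemius and 24.6 to 34.6 CPM in spinalis. Ncoa4, which besides its coactivator name is the receptor that carries ferritin to the lysosome, was at 14.6 to 20.3 and 15.8 to 20.9 CPM. Ncor1, the scaffold of the histone deacetylase complex, was at 131 to 164 and 122 to 148 CPM. The pairwise estimate nearest to a call among these 3 genes was Ncor1 in KO against WT in sham, at 0.13 (95% interval 0.04 to 0.22, adjusted p = 0.054 by edgeR). In the averaged contrasts it was Ncoa2 in KO against WT over sham and ORX, at 0.12 (SE 0.039, adjusted p = 0.038). Ncoa2 with ORX averaged over genotypes, at 0.09 (adjusted p = 0.095), was called with library-size scaling, at 0.17 (adjusted p = 0.0044), a scaling that raised the median of all genes by 0.07 in this contrast. Ncor1 shares 82 exon bases with Pigl and 1 with Ttc19 on the opposite strand.

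Of 15 other coactivators, all measured, ORX called 1 in each genotype (5.45% of all genes in WT and 5.57% in KO), both higher: Pnrc1 in WT (0.40, SE 0.07) and Tgfb1i1 in KO (0.70, SE 0.16). DHT called 2 in WT, against 11.3% of all genes, and 1 in KO, against 4.62%, all higher. Ncoa3, the remaining p160 coactivator, rose by 0.49 in WT (SE 0.06, adjusted p = 1.3e-06 by edgeR) and by 0.32 in KO (SE 0.06, adjusted p = 0.00094), and the arginine methyltransferase Carm1 rose by 0.43 in WT (SE 0.1). In KO against WT, Pnrc1 was lower in sham (-0.29, SE 0.071) and in ORX (-0.50, SE 0.074), and the chromatin remodeller Smarca4 was higher in empty (0.46, SE 0.064) and in DHT (0.45, SE 0.058). Each of these contrasts called 1 of the 15 coactivators, against 5.3%, 3.8%, 4.25% and 11.6% of all genes. Of 8 other corepressors, KO lowered 1 in ORX, against 3.8% of all genes, Gps2 (-0.39, SE 0.068), and 1 in DHT, against 11.6%, Tbl1xr1 (-0.22, SE 0.054).

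Of 9 genes of ferritin and iron handling, the pathway that Ncoa4 serves in autophagy, ORX lowered 2 in WT and 3 in KO (5.45% and 5.57% of all genes called) while Ncoa4 itself was not called. The iron exporter Slc40a1 fell with ORX by 0.98 on the log2 scale in WT (SE 0.056) and by 0.93 in KO (SE 0.059), and rose with DHT by 0.96 in WT (SE 0.12) and 0.67 in KO (SE 0.12). The transferrin receptor Tfrc fell with ORX by 0.89 (SE 0.099) and 0.75 (SE 0.1), and Slc11a2 by 0.29 in KO. Ferritin heavy chain Fth1 was lower in KO in sham (-0.37, SE 0.054) and in ORX (-0.44, SE 0.057). Tfrc was lower in KO in sham (-0.42, SE 0.098) and in DHT (-0.69, SE 0.14), and Herc2 fell with DHT by 0.41 in WT. DHT called 1 of the list higher and 1 lower in WT (11.3% of all genes called) and 1 higher in KO (4.62%). KO against WT called 2 lower in sham (5.3%), 1 lower in ORX (3.8%), none in empty (4.25%) and 1 lower in DHT (11.6%).

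Srd5a3, named as a steroid reductase and known for its part in making dolichol for protein glycosylation, was the least abundant member per length. It was at 1.9 to 3.58 CPM in gastrocnemius and 1.19 to 3.14 CPM in spinalis, with no call in any contrast. Its ORX estimates had opposite signs, -0.25 in WT and 0.22 in KO, and the interaction of 0.47 (95% interval 0.04 to 0.90, unadjusted p = 0.03, adjusted p = 0.45 by edgeR) was not called. Of 6 other genes of dolichol synthesis, 5 were measured and no pairwise contrast called any, against 3.8% to 11.6% of all genes.

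Of 12 other steroid-converting enzymes, 7 were measured in gastrocnemius and 8 in spinalis. ORX called 1 lower in each genotype, against 5.45% of all genes in WT and 5.57% in KO. DHT called 2 higher and 2 lower in WT, against 11.3%, and 2 higher in KO, against 4.62%. KO against WT called 1 higher in DHT (11.6%) and none in sham (5.3%), ORX (3.8%) or empty (4.25%). The DHT interaction called 1, against 3.24%. Hsd11b1, which regenerates active glucocorticoid inside cells, decreased with ORX by 0.45 on the log2 scale in WT (SE 0.094, adjusted p = 0.0021 by edgeR) and by 0.79 in KO (SE 0.1, adjusted p = 6.1e-06). With DHT it rose by 1.94 in WT (SE 0.17, adjusted p = 4.9e-09) and by 1.51 in KO (SE 0.17, adjusted p = 1.1e-06). Its interactions, -0.35 for ORX (adjusted p = 0.38) and -0.44 for DHT (0.39), were not called. H6pd, which supplies the cofactor of that enzyme, rose with DHT by 0.32 in WT (SE 0.077) and 0.56 in KO (SE 0.077). Hsd17b10 and Hsd17b4 fell with DHT in WT by 0.35 (SE 0.081) and 0.34 (SE 0.068). Hsd17b10 was higher in KO than in WT under DHT (0.40, SE 0.078), and its interaction of 0.46 (SE 0.12, adjusted p = 0.025) was called.

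Of 4 other steroid receptor genes 2 were measured in each experiment, and the mineralocorticoid receptor gene Nr3c2 was called in spinalis. It fell with DHT by 0.49 in WT (SE 0.078, adjusted p = 5.9e-05 by edgeR), against 11.3% of all genes called. Under DHT it was higher in KO (0.41, SE 0.075, adjusted p = 3e-04 by edgeR), against 11.6%. No contrast called either gene in gastrocnemius, where the pairwise contrasts called 3.8% to 5.57% of all genes.

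Of 20 glucocorticoid target genes, all measured in gastrocnemius, ORX called the same 2 in each genotype, against 5.45% of all genes in WT and 5.57% in KO. Sesn1, a stress-induced inhibitor of growth signalling, rose by 1.08 in WT (SE 0.071) and 1.06 in KO (SE 0.074). Fbxo32, the muscle ubiquitin ligase atrogin-1, fell by 0.75 (SE 0.11) and 0.52 (SE 0.11) and was also lower in KO in sham (-0.85, SE 0.11) and in ORX (-0.62, SE 0.11). The list's median for KO against WT was -0.33 in sham and -0.21 in ORX, against medians of -0.0069 and 0.0086 over all genes. Below 0 were 15 and 16 of 20 genes, but 1 was called in each, against 5.3% and 3.8% of all genes.

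In spinalis 19 of the 20 glucocorticoid targets were measured. DHT called 2 higher and 4 lower in WT, against 11.3% of all genes, and 0 higher and 2 lower in KO, against 4.62%. Sesn1 fell by 1.14 in WT (SE 0.12) and by 0.72 in KO (SE 0.12). Klf15 fell by 1.74 (SE 0.17, adjusted p = 2.4e-08 by edgeR) and Glul by 1.55 (SE 0.18, adjusted p = 4.1e-07) in WT, and their interactions of 1.24 (SE 0.23, adjusted p = 0.0023) and 1.28 (SE 0.25, adjusted p = 0.003) were called. The list had 1 more called interaction, of the opposite sign, against 3.24% of all genes. In KO the values were -0.50 for Klf15 (SE 0.16, adjusted p = 0.05) and -0.27 for Glul (SE 0.17, adjusted p = 0.36). Fbxo32 rose by 0.67 in WT (SE 0.16), and KO lowered it in empty (-0.81, SE 0.17) and in DHT (-1.47, SE 0.15). KO against WT called 1 of the targets higher and 2 lower in empty, against 4.25% of all genes, and 1 higher and 1 lower in DHT, against 11.6%. The list's median for KO against WT was -0.31 in empty and -0.11 in DHT, with 13 and 14 of 19 genes below 0. Over all genes the medians were 0.013 and 0.0064.

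The genes whose levels tracked each called member most closely across an experiment were named by rank of r over all its libraries. For Esr1 these were Sel1l3 (0.92), Aebp1 (0.91) and Stc2 (0.91) in gastrocnemius, and Dcun1d1 (0.90), Lrtm1 (0.86) and Aebp1 (0.86) in spinalis. For Nr3c1 they were Itih5 (0.85), Rock2 (0.84) and Cadm3 (0.83) in gastrocnemius, and Abcc8, AC103597.1 and Sec61b (0.92 each) in spinalis. For Ncoa1 they were Hipk2 (0.86), Phc1 (0.84) and Smad4 (0.84) in gastrocnemius, and Dyrk1a (0.93), Eps15 (0.92) and Fermt2 (0.91) in spinalis. For Fkbp5 in spinalis they were Dennd5b (0.91), Kcnf1 (0.90) and Hr (0.89). These r are over 23 and 22 libraries that share groups and scaling. Once group means were removed, Smad4 had 0.80 with Ncoa1 whereas Lrtm1 had 0.00 with Esr1.

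Promoter windows of 300 bases around RefSeq starts were found for 7 of the 9 members on build GRCm38.p6, Ncoa2 and Nr3c1 having none in the table used. Esr1 and Ncor1 had 2 windows each, Ncoa4 3 and the others 1, 11 in all. After the results were seen, 5 motifs were searched on both strands. Of 32851 windows of that length over all genes, 19% held AGAACA, a receptor half-site, 0.00913% held AGAACA facing TGTTCT at a spacing of 3 bases, and 0.07% held GGTCA facing TGACC at a spacing of 3 bases, the estrogen receptor arrangement. CACGTG was in 7.15% and GGGCGG in 35.7%. Neither spaced pair was in any member's window. AGAACA was in 5 of the 11 windows (Ncoa1, 1 of 2 of Ncor1 and 3 of 3 of Ncoa4), CACGTG in 2 (Fkbp5 and Srd5a3), and GGGCGG in 6 (Srd5a3, Fkbp4, Ncoa1, Fkbp5, 1 of 2 of Ncor1 and 1 of 3 of Ncoa4). A pair of the Ncoa4 windows overlap and share an AGAACA match, so the windows are not all separate. Esr1 windows held none of the 5. The Ncoa1 and Fkbp5 windows are shown because these cofactors differed between genotypes. The match in capitals is AGAACA in Ncoa1 (chr12:4477133-4477432, minus strand) and CACGTG in Fkbp5 (chr17:28486100-28486399, minus strand), and a match is a description of letters alone.
Ncoa1: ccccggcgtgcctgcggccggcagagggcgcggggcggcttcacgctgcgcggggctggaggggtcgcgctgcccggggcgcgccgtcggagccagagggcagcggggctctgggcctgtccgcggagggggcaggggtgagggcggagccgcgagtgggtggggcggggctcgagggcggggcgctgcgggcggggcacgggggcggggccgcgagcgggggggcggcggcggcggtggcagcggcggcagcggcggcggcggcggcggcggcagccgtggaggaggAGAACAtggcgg
Fkbp5: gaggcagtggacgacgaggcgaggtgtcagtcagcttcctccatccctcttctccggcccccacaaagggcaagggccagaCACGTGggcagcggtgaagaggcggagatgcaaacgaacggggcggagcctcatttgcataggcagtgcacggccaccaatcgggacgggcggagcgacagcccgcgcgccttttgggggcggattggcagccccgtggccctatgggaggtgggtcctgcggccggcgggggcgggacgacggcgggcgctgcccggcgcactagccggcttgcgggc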

How the data were processed

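Stranded total RNA libraries were sequenced from whole muscle. The deposited values are counts of reads per gene, which the authors made by alignment with STAR 2.7.1b, duplicate marking with Picard 2.20.2 and counting with featureCounts of Subread 2.0.0. The steps are from the study's methods and the versions from the submitters' processing notes, which also name SAMtools 1.9 and build GRCm39. Whether counting used strand is not given in the sources used here.

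In R 4.3.3, edgeR 4.0.16 was run on the counts (limma 3.58.1 for voom), with TMM scaling, 1 mean per group and quasi-likelihood F tests on all 17514 (gastrocnemius) and 16987 (spinalis) genes. The SE is the absolute log2 fold change over the square root of F. Gene symbols came from a table of Ensembl identifiers, and exon lengths and overlaps from GENCODE M21 on GRCm38. The 2 sources together held 17435 and 16922 of the identifiers. Log2 CPM used a prior count of 2. Gastrocnemius columns were matched to labels by title, spinalis columns by group alone, and spinalis libraries carry the mouse number of their column. P-values measure the spread between mice.

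The members and lists were chosen with earlier results of these data known. Named genes are the members, Actn3, up to 4 genes with the smallest p of each list and experiment among those called in a pairwise contrast, and the 3 genes with the highest r with each called member. Correlations of Fkbp5 with the listed targets, and the targets named from them, were chosen after their values were seen. The alternatives tried were limma-voom, scaling by library size, DESeq2 1.42.0, at least 10 counts in every library, fits of the groups compared alone, a replicate block and leaving out each library. Contrasts averaged over genotype or hormone state, and the promoter motifs, were chosen after seeing the data. The tests were tried on simulated data. 2 genes are not reported here, and the lists are counted without them. Plots used matplotlib 3.10.9 under Python 3.11.15.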

Additional observations from a re-analysis of the deposited data

Results flagged for a closer look

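In 4 of 72 groups of member levels, a library stood apart from the rest of its group by the gap to its nearest neighbour, and chance gives about 1 in 20. Esr1 in KO-empty was at 60.4 CPM in mouse 33KR and at 49.9 to 51.6 CPM in the others. Ncoa1 in KO-sham was at 42.3 CPM in replicate 1 and at 33.2 to 36.3 CPM in the others. Ncoa2 in WT-ORX was at 33.7 CPM in replicate 6 and at 28.3 to 30 CPM in the others. Nr3c1 in WT-empty was at 196 CPM in mouse 14KR and at 248 to 265 CPM in the others. The cause was not tested.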

How the results depend on the processing

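Of 3474 member values recomputed under the alternatives, 3389 kept their side of the threshold, 71 lost a call, 14 gained one and 0 reversed. Among these values, 105 that were never called changed sign. Most of the values were not called in the main fit and so had no call to lose. Calls held in each of the 23 gastrocnemius or 22 spinalis fits without 1 library for Esr1 with ORX and with DHT in both genotypes, Nr3c1 with DHT in WT, and Fkbp5 and Ncoa1 in KO against WT under DHT.

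Beside each count of members is the number of genes called under the same setting, of 17514 in gastrocnemius and 16987 in spinalis. Members called with library-size scaling were 1 for ORX in WT (776 genes), 2 for ORX in KO (900), 0 for KO against WT in ORX (473), 2 for DHT in WT (1768) and 1 for KO against WT in empty (533). For the averages it gave 3 for ORX (2140), 2 for DHT (2254) and 2 for KO against WT over empty and DHT (2335). Fits of only the groups compared called 1 member for ORX in WT (921), 2 for DHT in WT (1687) and 0 for KO against WT in sham (769), ORX (473) and empty (290). They called 485 genes for ORX in KO and 505 for DHT in KO, with fewer samples. DESeq2 called 127 genes for the ORX interaction, against 4 by edgeR and 10 by limma-voom, 1201 genes and 2 members for DHT in KO, and 2 members for KO against WT averaged over sham and ORX (2024 genes). At least 10 counts in every library, which leaves fewer genes, gave 2 members for DHT in KO (693 genes). The cause of each was not tested unless stated.

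The replicate block called 1 member and 934 genes for ORX in WT (Nr3c1 adjusted p = 0.014), and 0 members and 627 genes for KO against WT in ORX (Esr1 adjusted p = 0.012). Deviations of gastrocnemius libraries with the same number had r of -0.15 to 0.19. Whether libraries with the same number share more than that number was not tested. The spinalis columns carry no replicate number, so no block was fitted there.

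Without 1 library, members called ranged from 1 to 2 for ORX in WT (732 to 988 genes) and in KO (589 to 1116 genes), and from 0 to 1 for KO against WT in sham (690 to 977 genes) and in ORX (495 to 715 genes). They ranged from 1 to 2 for KO against WT averaged over sham and ORX (1479 to 1674 genes), 2 to 3 for DHT in WT (1607 to 1960 genes), 1 to 2 for DHT in KO (533 to 870 genes), 0 to 2 for KO against WT in empty (450 to 700 genes) and 0 to 1 for the DHT interaction (430 to 658 genes). For the other averages they ranged from 3 to 4 for DHT (2288 to 2600 genes) and 2 to 3 for KO against WT over empty and DHT (2129 to 2364 genes). Genes called for the ORX interaction ranged from 2 to 38.

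Library-size scaling raised the median of all genes by 0.11 for ORX in KO. It moved the share of calls that were higher from 37.5% to 54.4% for ORX in WT, 35.7% to 78.6% for ORX in KO, 28.2% to 46.9% for KO against WT in ORX, 40.1% to 73.2% for averaged ORX, 58.8% to 43.6% for DHT in WT, 41.3% to 52.9% for KO against WT in empty, 44.1% to 65.3% in DHT, 41.5% to 55.1% for the DHT interaction, 57.6% to 44.4% for averaged DHT and 44.6% to 65.7% for KO against WT averaged over empty and DHT. For the ORX interaction it was 75% of 4 genes, 100% of 3 with that scaling and 39.4% of 127 by DESeq2. Groups of 5 and 6 libraries limit the precision.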
